A study of Rattus norvegicus with 16 samples.

Results

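Of 4736 genes measured in rat liver, 8 were followed here because they are known mainly as genes of cells other than hepatocytes. Which cells gave their RNA in these livers was not tested. Lyve1, Kdr and Fcgr2b are genes of the sinusoidal endothelium, and Col1a1, Col1a2, Col3a1, Sparc and Dcn are genes of stellate cells and fibroblasts. Every probe set that the annotation of the array platform assigns to 1 of these symbols was taken, which gave 18 of 8740 probe sets, and each was kept on its own. The livers were those of 16 male F344 rats, aged 6 weeks when they arrived, with 4 rats in each of 4 groups. Rats were gavaged on alternate days over 5 days with saturated sucrose (vehicle) or a dithiolethione at 0.3 mmol/kg, and livers were taken 24 h after dose 3. The compounds were D3T, the unsubstituted dithiole thione, OLT (oltipraz), with added methyl and pyrazinyl groups, and TBD, with an added tert-butyl group. The titles of the control samples call them untreated, whereas their treatment protocol gives sucrose, and they are called vehicle here. All values are log2 GCRMA expression values, 1 array per rat, so a difference of 1 is a 2-fold change.

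Liver sinusoids are lined by fenestrated endothelial cells that clear macromolecules and immune complexes from portal blood. LYVE1 is a hyaluronan receptor and FCGR2B a receptor for immune complexes on these cells, and KDR is the main receptor for vascular endothelial growth factor. Hepatic stellate cells lie between this endothelium and the hepatocytes, store vitamin A when quiescent and, once activated in injury, become the main source of fibrillar collagen. COL1A1 and COL1A2 form type I collagen, COL3A1 forms type III collagen, and SPARC and decorin (DCN) are secreted proteins that bind collagen and shape its fibrils. Dithiolethiones are known as inducers of NRF2 target genes, most of which are studied in hepatocytes. In bulk liver RNA, fewer cells of a type and less RNA per cell cannot be told apart.

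The promoters of a pair of genes described below are shown because a probe set of each was called lower with D3T. The genes were also listed above under different cell types, an assignment that was not tested here. They come from RefSeq on assembly GRCr8, where 4 of the 8 genes (Lyve1, Kdr, Col1a2 and Sparc) were matched, and run from 250 bases before to 50 bases after the start of transcription, in the direction of transcription. Lyve1 lies on the minus strand at chr1:174410928-174411227 and Sparc on the minus strand at chr10:40038767-40039066. Capitals mark CCAAT boxes (CCAAT on either strand).
Lyve1: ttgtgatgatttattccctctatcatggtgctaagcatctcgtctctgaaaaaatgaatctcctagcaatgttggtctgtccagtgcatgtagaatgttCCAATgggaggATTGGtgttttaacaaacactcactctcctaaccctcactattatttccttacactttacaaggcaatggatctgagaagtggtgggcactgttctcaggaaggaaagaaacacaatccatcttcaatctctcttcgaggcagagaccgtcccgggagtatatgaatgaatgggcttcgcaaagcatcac
Sparc: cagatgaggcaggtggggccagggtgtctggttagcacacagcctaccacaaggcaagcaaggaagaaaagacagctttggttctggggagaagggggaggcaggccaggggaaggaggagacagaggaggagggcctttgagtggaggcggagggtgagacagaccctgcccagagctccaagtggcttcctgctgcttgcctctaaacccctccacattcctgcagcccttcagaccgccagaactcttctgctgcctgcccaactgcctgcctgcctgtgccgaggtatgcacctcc
The Lyve1 window held CCAAT on the plus strand from -151 to -147 and on the minus strand from -140 to -136, counted from the start of transcription. Both strands were also searched for the TATA box (TATAAA), the GC box (GGGCGG) and the core of the antioxidant response element (TGACNNNGC), which NRF2 is known to bind. The Sparc window held none of the 4 motifs and the Lyve1 window only the first. Of the other matched genes, Col1a2 held a CCAAT box and a TATA box. The start used for the Kdr window differs from the start of the Kdr gene in the RefSeq table, so that window is not described. Over 33469 promoters of the same length, 37.5% held a CCAAT box, 14.2% a TATA box, 33.1% a GC box and 12.1% the response element core. The GC content was 43.3% for Lyve1 and 61% for Sparc, against a median of 51.7%. A match is a description of the letters and not a binding site.

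Only probe sets that exceeded the 40th percentile of their array in 4 or more of the 16 rats were tested, which held for 14 of the 18. Those left out were 2 of 4 probe sets of Col1a1, the only probe set of Col1a2 and 1 of 4 of Dcn, so type I collagen rests on a pair of Col1a1 probe sets and Col1a2 could not be assessed. The Col1a2 probe set read 2.52 to 3.08 and never rose above the 40th percentile of its array. The vehicle mean of Col1a2 was 2.81 ± 0.19 (SD, n = 4), and the compound means lay between 2.60 and 2.63. Groups were compared with limma over all 16 arrays. A change was called where the p-value, adjusted by the method of Benjamini and Hochberg for 5323 probe sets, was under 0.05.

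D3T lowered 5 of the 14 tested probe sets and raised none, 1 each of Lyve1, Fcgr2b, Col1a1, Col3a1 and Sparc. The Col1a1 probe set (M27207mRNA_s_at) entered the test through the groups in which it was high. It lay above the 40th percentile on 1 of 4 D3T arrays, so its share in the D3T counts rests on values near background. Over all tested probe sets, 12.2% were called lower and 6.18% higher with D3T. TBD lowered 4, 1 each of Lyve1, Col1a1, Col3a1 and Dcn, against 9.47% lower and 3.55% higher of all tested. OLT lowered 2, 1 each of Col1a1 and Dcn, against 7.89% lower and 3.38% higher. In 5, 1 and 4 of the 14 every rat given D3T, OLT or TBD lay below every vehicle rat, which held for 15.8%, 9.79% and 10.3% of all tested probe sets. The median log2 difference over the 14 was -0.49 with D3T, -0.26 with OLT and -0.48 with TBD, beside 0.04, -0.03 and -0.02 over all tested probe sets. The 3 comparisons share the vehicle arrays and are not independent. Several of the calls with OLT and TBD ended when a single array was left out, as given with each gene.

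**Figure D1:**
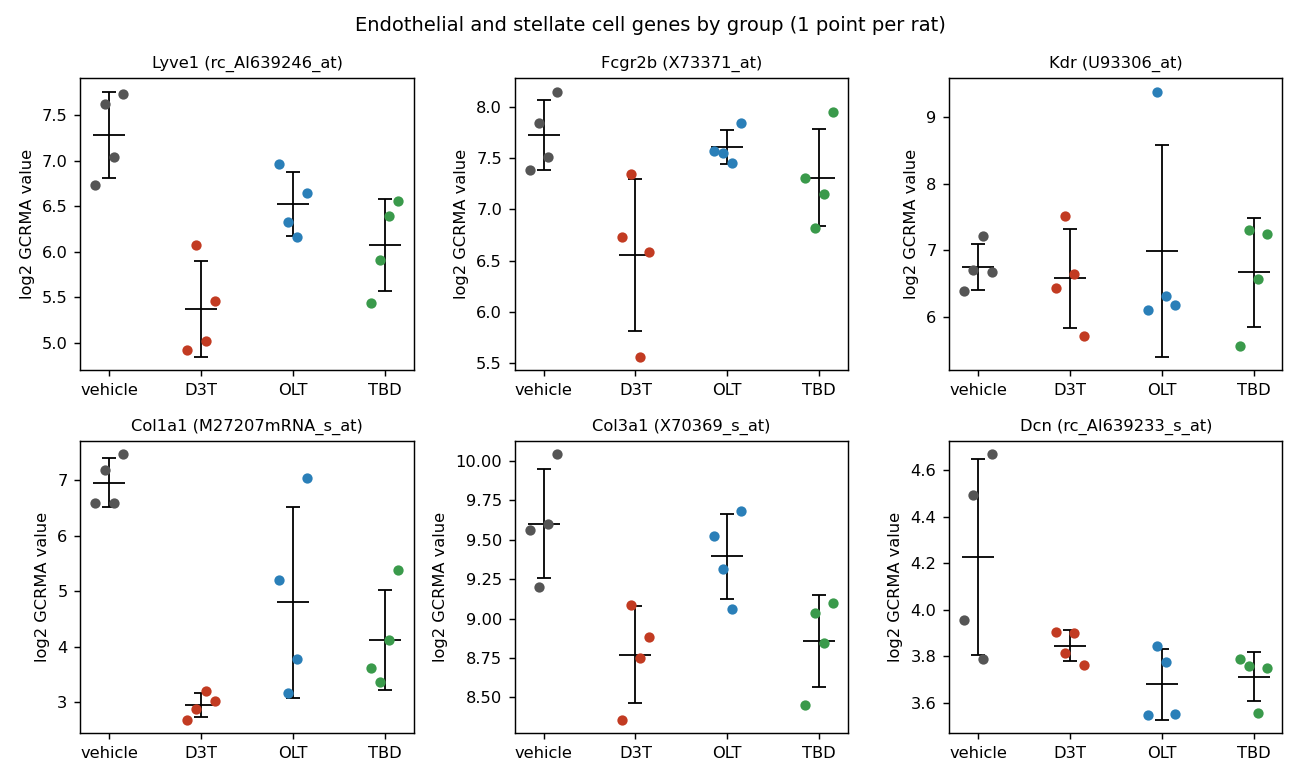
Log2 GCRMA values of 6 probe sets by group, 1 point per rat, with the mean (bar) and SD (whiskers) of 4 rats; each panel has its own scale, which does not start at 0. Lyve1, Fcgr2b, Col1a1 and Col3a1 show every D3T rat below every vehicle rat, while Kdr does not separate and has 1 OLT rat at 9.38.

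Lyve1, the gene of a hyaluronan receptor, fell with D3T and with TBD. Its vehicle values were 6.74, 7.62, 7.05 and 7.73 and its D3T values 4.92, 6.08, 5.02 and 5.45 (probe set rc_AI639246_at, replicates 1 to 4). With OLT it read 6.96, 6.33, 6.16 and 6.65, and with TBD 5.43, 5.91, 6.39 and 6.55. Every D3T and TBD rat lay below every vehicle rat, whereas the OLT and vehicle ranges overlapped, with the highest OLT rat above the lowest vehicle rat. The fall with D3T was 3.78-fold (log2 difference -1.92 ± 0.31 SE, adjusted p = 0.000747, limma). The call held without each array in turn, with log2 differences between -2.15 and -1.77 and adjusted p between 0.00051 and 0.00345. With TBD the fall was 2.32-fold (-1.21 ± 0.31, adjusted p = 0.0172, limma). This TBD call ended when vehicle replicate 2, vehicle replicate 4 or TBD replicate 1 was left out, with adjusted p = 0.0601 at most (-1.10, without vehicle replicate 2) and adjusted p values over the arrays left out starting at 0.0102. It also ended after centring of the array medians (-1.20, adjusted p = 0.0642) and in a fit on the 8 arrays compared (adjusted p = 0.052). The OLT difference was -0.76 (95% interval -1.42 to -0.10, adjusted p = 0.139) and passed the threshold with each array's 40th percentile as a covariate (-0.86, adjusted p = 0.0332).

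Fcgr2b, the inhibitory Fc receptor, fell with D3T and was not called with OLT or TBD, although no difference between compounds passed the test either. Vehicle rats read 7.38, 7.84, 7.51 and 8.14 and D3T rats 6.73, 7.34, 5.56 and 6.58 (probe set X73371_at). OLT rats read 7.57, 7.55, 7.45 and 7.84, and TBD rats 7.31, 6.82, 7.15 and 7.95. All 4 D3T rats lay below all 4 vehicle rats, by 0.04 at the closest, while OLT and TBD rats overlapped the vehicle range. The D3T fall was 2.24-fold (log2 difference -1.16 ± 0.31 SE, adjusted p = 0.0179, limma). It missed the threshold without vehicle replicate 2 (-1.12, adjusted p = 0.0516) or vehicle replicate 4 (-1.02, adjusted p = 0.0573), with adjusted p from 0.00544 over the arrays left out. Fcgr2b differed by -0.12 with OLT (95% interval -0.79 to 0.55) and by -0.41 with TBD (-1.08 to 0.26). The OLT value changed sign after renewed quantile normalization (0.01), with array weights (0.0039) and without vehicle replicate 4 (0.02). The estimation of array weights stopped before it converged, here and wherever they are used below. Without D3T replicate 3, which held the lowest value, the D3T difference was -0.83.

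Kdr, the growth factor receptor of the endothelium, had no call with any compound. Vehicle rats read 6.39, 6.70, 7.21 and 6.68 and D3T rats 6.43, 7.51, 6.65 and 5.71 (probe set U93306_at). OLT rats read 6.10, 9.38, 6.31 and 6.17, and TBD rats 5.55, 7.31, 6.56 and 7.25. A single rat, OLT replicate 2, stood above every other rat of the study, and all groups overlapped. The 95% intervals of the log2 difference ran from -1.54 to 1.20 with D3T, -1.12 to 1.61 with OLT and -1.44 to 1.29 with TBD, so a change of 2-fold in either direction lay within each of them. The OLT difference was 0.25 with all arrays and -0.55 without OLT replicate 2. Its spread within groups (residual SD 0.99) stood at percentile 98.95 of all tested probe sets.

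The type I collagen gene Col1a1 was called lower with all 3 compounds at 1 of its probe sets. Probe set M27207mRNA_s_at read 6.59, 7.18, 6.59 and 7.47 in vehicle rats and 2.68, 2.87, 3.20 and 3.02 in D3T rats. It read 5.20, 3.16, 3.78 and 7.05 in OLT rats and 3.61, 3.36, 4.12 and 5.38 in TBD rats. All D3T and TBD rats lay below all vehicle rats, while OLT replicate 4 lay within the vehicle range and the other OLT rats below it. The log2 difference was -4.01 ± 0.65 SE with D3T (adjusted p = 0.000762, limma), -2.84 ± 0.65 with TBD (adjusted p = 0.01) and -2.16 ± 0.65 with OLT (adjusted p = 0.0452). The D3T values lay below the median of their array on 4 of 4 arrays, where GCRMA values depend on its background model, so the size of the D3T difference is not a measured fold. With OLT and with TBD, 3 of 4 arrays read above their median, so those sizes depend on the model in part. In an alternative chosen after seeing the data, every value below an array's median was raised to that median. The differences were then -2.82 with TBD (adjusted p = 0.00736, limma) and -2.06 with OLT (0.0426). For D3T this setting puts the array median in place of all 4 values, so its difference of -3.48 compares vehicle with those medians. It is no further test of D3T. This probe set passed the filter through the groups in which it was high, since 1 D3T array lay above its 40th percentile, so its place among the 5 calls with D3T rests on a group near background.

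The D3T and TBD calls of this Col1a1 probe set held without each array in turn, with log2 differences of -4.14 to -3.84 and -3.26 to -2.59. The OLT call was lost for 13 of the 16 arrays left out, with adjusted p from 0.00321 without OLT replicate 4 to 0.135 without OLT replicate 2. Without vehicle replicate 1 it was 0.057 (-2.28), without vehicle replicate 2 it was 0.113 (-2.09), without vehicle replicate 3 it was 0.0611 (-2.28), and without vehicle replicate 4 it was 0.117 (-1.99). It was lost without OLT replicates 1 (0.059) and 3 (0.133), without TBD replicates 1 (0.0504) and 3 (0.0539), and without any D3T replicate (0.0582 to 0.0597). Renewed quantile normalization (adjusted p = 0.0625), centring (0.105), testing all probe sets (0.0732), an intensity trend together with robust fitting of the variance prior (0.0512) and a fit on the 8 arrays compared (0.106) also ended it.

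The other tested Col1a1 probe set, Z78279_at, lay close to the array medians and had no call. It read 3.68 to 4.36 in vehicle rats, 3.33 to 3.90 with D3T, 3.36 to 3.61 with OLT and 3.51 to 3.55 with TBD. OLT and TBD rats lay below all vehicle rats and D3T rats overlapped them. The differences of -0.40, -0.45 and -0.43 with D3T, OLT and TBD missed the threshold (adjusted p = 0.0663, 0.0552 and 0.0594, limma). Each of them passed when the variance prior followed intensity and was fitted robustly (adjusted p = 0.049, 0.0393 and 0.0425) and with vehicle replicate 1, vehicle replicate 2 or D3T replicate 1 left out. With array weights, whose estimation stopped before it converged, they were -0.74, -0.79 and -0.81 (adjusted p = 5.6e-05, 0.0017 and 0.00048, limma). Without vehicle replicate 3 they were -0.26, -0.32 and -0.30 (0.187, 0.143 and 0.159). The D3T difference also passed after quantile normalization (0.031), after centring (0.033) and with the 40th percentile as a covariate (0.0402), and those with OLT and TBD with values raised to the array median (0.0432 and 0.0466). The remaining pair of Col1a1 probe sets, Z78279_g_at and rc_AI231472_s_at, read 2.38 to 2.60 and 2.28 to 3.21 and were not tested. As the average of its 4 probe sets, Col1a1 differed by -1.11 with D3T (adjusted p = 0.00107), -0.61 with OLT (0.0497) and -0.83 with TBD (0.00907), in a fit with 1 value per gene. The untested pair differed by -0.04 and 0.01 with D3T. The D3T average therefore rests mainly on M27207mRNA_s_at, whose D3T values lay near background, and adds no separate reading of the gene. The OLT and TBD averages also rest mainly on M27207mRNA_s_at, which differed by -2.16 and -2.84, beside -0.45 and -0.43 for Z78279_at. They add no separate reading either.

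Col3a1, the type III collagen gene, lay above the array median in every rat and fell with D3T and with TBD at 1 of its 2 probe sets. Probe set X70369_s_at read 9.56, 9.20, 9.60 and 10.04 in vehicle rats, 8.36, 9.08, 8.75 and 8.89 with D3T, 9.52, 9.31, 9.06 and 9.68 with OLT, and 8.45, 9.04, 8.84 and 9.10 with TBD. All D3T and TBD rats lay below all vehicle rats, and OLT rats overlapped them. It fell 1.78-fold with D3T (log2 difference -0.83 ± 0.20 SE, adjusted p = 0.0106, limma) and 1.68-fold with TBD (-0.74 ± 0.20, adjusted p = 0.0247), and differed by -0.21 with OLT (95% interval -0.64 to 0.23). The D3T call held without each array in turn (adjusted p between 0.00759 and 0.0383). The TBD call was lost without vehicle replicate 4 (-0.60, adjusted p = 0.0819), TBD replicate 1 (-0.61, 0.0787) or TBD replicate 3 (-0.74, 0.0541), with adjusted p from 0.0165 over the arrays left out. It was also lost after quantile normalization (-0.59, 0.0528), after centring (0.0736) and on the 8 arrays compared (0.0707). The other probe set, M21354_s_at, differed by -0.19 with D3T (-0.54 to 0.16), -0.05 with OLT (-0.40 to 0.30) and -0.47 with TBD (-0.82 to -0.12, adjusted p = 0.0779), the first 2 turning to 0.01 and 0.10 after quantile normalization. That TBD difference passed with the replicate block (adjusted p = 0.0395) without TBD replicate 4 (-0.56, 0.0417) and with array weights (-0.36, 0.0155).

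SPARC, a matrix protein that binds collagen, was read by 4 probe sets that did not move alike. Probe set rc_AA946313_s_at read 8.31, 7.67, 8.46 and 9.06 in vehicle rats and 7.43, 7.31, 7.39 and 7.43 in D3T rats. It read 7.77, 7.84, 7.26 and 8.39 with OLT and 7.48, 7.52, 7.85 and 7.53 with TBD. All D3T rats lay below all vehicle rats and close to each other (7.39 ± 0.06 SD, n = 4), and the other groups overlapped vehicle. This probe set fell 1.98-fold with D3T (log2 difference -0.99 ± 0.25 SE, adjusted p = 0.0127, limma), and the call held without each array in turn (-1.22 to -0.76). With TBD it differed by -0.78 (adjusted p = 0.0526), which passed with the replicate block (0.0482), with the filter at the 50th percentile (0.0459), with array weights (-0.91) and when vehicle replicate 2 (-1.01, 0.011) or OLT replicate 3 (0.0375) or 4 (0.0362) was left out. With OLT it differed by -0.56 (adjusted p = 0.183), which passed without vehicle replicate 2 (-0.79, 0.0424) and with array weights (-0.90). Without vehicle replicate 4 the differences with OLT and TBD shrank to -0.33 (0.516) and -0.55 (0.158).

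The other Sparc probe sets had no call. Probe set Y13714_at differed by -0.57, -0.32 and -0.50 with D3T, OLT and TBD, and the last 2 turned to 0.46 and 0.10 with array weights. Without vehicle replicate 4 they were -0.37, -0.12 and -0.30. Probe set rc_AA891204_s_at differed by -1.22, -0.94 and -1.23, with the widest vehicle spread of the 4 (5.83 to 8.29), and its D3T and TBD differences passed without vehicle replicate 3 (-1.57, adjusted p = 0.029, and -1.58, adjusted p = 0.0359). Without TBD replicate 4 the TBD difference also passed (-1.53, adjusted p = 0.039). Without vehicle replicate 4 the differences of rc_AA891204_s_at shrank to -0.75, -0.47 and -0.76 (adjusted p = 0.246, 0.686 and 0.297). The fourth, rc_AA892248_at, read between 11.42 and 12.62 and ran the other way, at 11.80 ± 0.29 (SD, n = 4) in vehicle, 12.01 ± 0.22 with D3T, 12.07 ± 0.39 with OLT and 12.31 ± 0.27 with TBD. Its largest difference, 0.51 with TBD (95% interval 0.08 to 0.93, adjusted p = 0.12, limma), passed with array weights alone (0.66). As the average of the 4 probe sets, Sparc differed by -0.64 with D3T (adjusted p = 0.0277), -0.39 with OLT (0.224) and -0.50 with TBD (0.097).

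**Figure D2:**
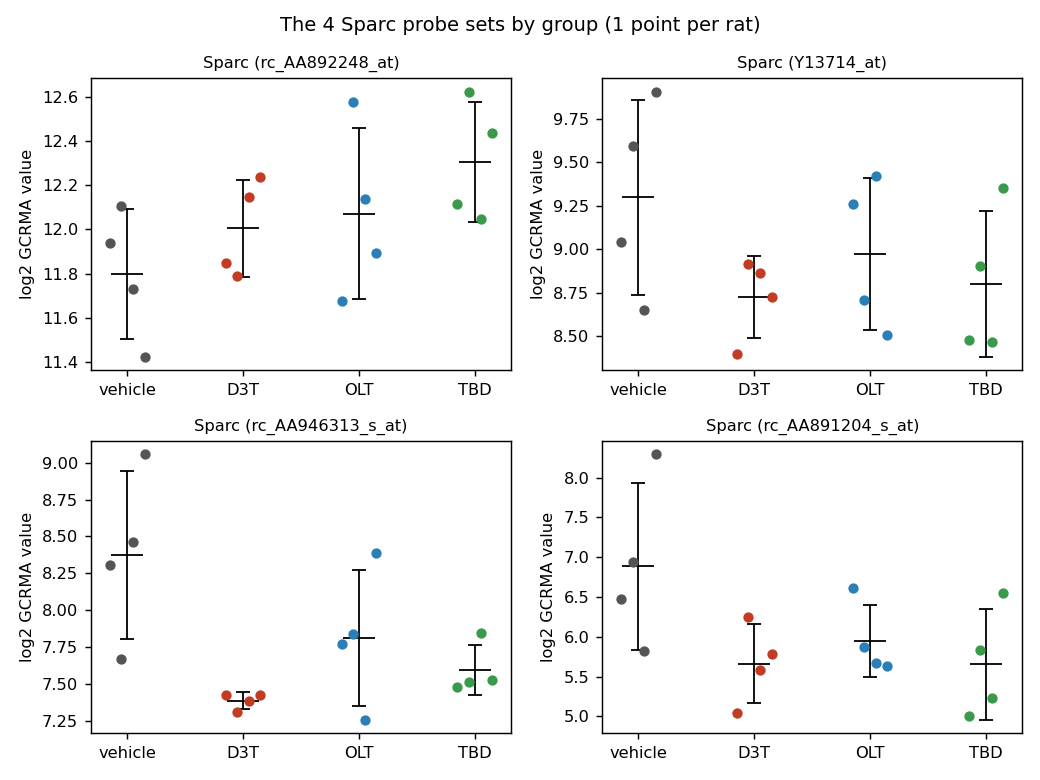
The 4 Sparc probe sets by group, 1 point per rat, with mean and SD of 4 rats as log2 GCRMA values; each panel has its own scale, which does not start at 0. Means of 3 probe sets are below vehicle with each compound, whereas those of rc_AA892248_at are above it, and vehicle replicate 4 is the highest vehicle rat in 3 panels and the lowest in that of rc_AA892248_at.

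Decorin gave a mixed picture. Probe set rc_AI639233_s_at read 3.95, 4.49, 3.79 and 4.67 in vehicle rats, 3.76 to 3.90 with D3T, 3.55 to 3.84 with OLT and 3.55 to 3.79 with TBD. Vehicle replicates 2 and 4 were high, and the lowest vehicle rat lay within the D3T and OLT ranges and below the highest TBD rat. It fell with OLT (log2 difference -0.55 ± 0.16 SE, adjusted p = 0.0383, limma) and TBD (-0.51 ± 0.16, adjusted p = 0.0474), and with D3T it differed by -0.38 (adjusted p = 0.116), which passed without vehicle replicate 3 (-0.53, adjusted p = 0.0237). The OLT call was lost for 9 of 16 arrays left out, which were vehicle replicates 2 and 4, each D3T replicate and OLT replicates 1, 3 and 4. The TBD call was lost for 14, all but vehicle replicates 1 and 3. The adjusted p reached 0.128 and 0.147, both without vehicle replicate 2. With array weights both differences were -0.08, and the D3T difference turned to 0.04. Both calls were lost with the replicate block (adjusted p = 0.0553 and 0.0631), after quantile normalization (0.0596 and 0.0709) and after centring (0.105 and 0.107), and 1.5-fold was not reached.

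The other Dcn probe sets read higher or level with the compounds. Probe set X59859_i_at stood at 5.39 ± 0.58 (SD, n = 4) in vehicle, 5.61 ± 0.32 with D3T, 6.45 ± 0.69 with OLT and 6.31 ± 0.82 with TBD, without a call. Its D3T difference of 0.22 turned to -0.33 with array weights, and its OLT difference of 1.06 passed without OLT replicate 2 (1.38, adjusted p = 0.0484). Probe set X59859_r_at differed by 0.28 with D3T (95% interval 0.01 to 0.55, adjusted p = 0.153), which passed after centring (0.22, adjusted p = 0.0265), with array weights (0.24) and with the 40th percentile as a covariate (0.22, adjusted p = 0.00436). As the average of its 4 probe sets, Dcn differed by 0.03, 0.15 and 0.15 with D3T, OLT and TBD, with adjusted p of 0.596 or above.

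**Figure D3:**
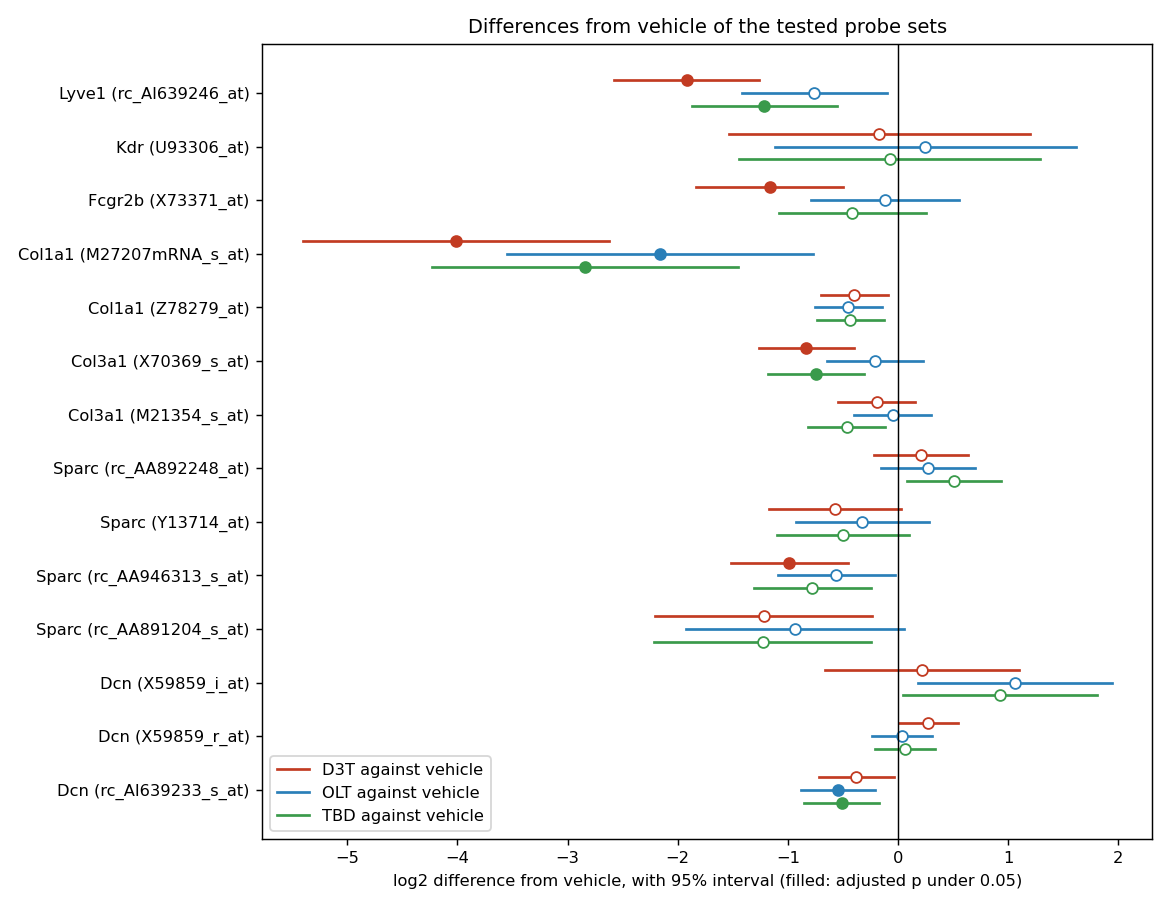
Log2 differences from vehicle with 95% intervals (limma over all 16 arrays) for the 14 tested probe sets, with filled points where the adjusted p is under 0.05. The called probe sets are all below 0, and the probe sets of Sparc and of Dcn lie on both sides of it.

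The compounds were given at 1 dose and time, so their effects could be compared directly. No tested probe set of these genes passed in any of the 3 comparisons between compounds (limma, adjusted p of at least 0.105 for D3T against OLT, 0.9999 for TBD against OLT and 0.412 for D3T against TBD). Over all tested probe sets 1.07%, 0.0564% and 0.658% were called. At an unadjusted p under 0.05 there were 4, 2 and 2 of 14, beside 12.3%, 2.72% and 10% of all tested. The lowest adjusted p was that of Lyve1, which differed by -1.16 on the log2 scale between unsubstituted D3T and OLT, which carries a methyl and a pyrazinyl group (95% interval -1.81 to -0.50, adjusted p = 0.105). All 4 D3T rats lay below all 4 OLT rats for Lyve1, and likewise for Fcgr2b (-1.05, -1.72 to -0.38, adjusted p = 0.144). The groups were separated in this direction at 4.04% of tested probe sets. Col3a1 (X70369_s_at) differed by -0.62 between D3T and OLT (-1.06 to -0.19), with overlapping groups. Col1a1 (M27207mRNA_s_at) is not set against the other compounds for D3T, because its D3T values lay below the array medians.

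D3T and TBD, which differ by the tert-butyl group, were closer for Col3a1 (-0.09, 95% interval -0.52 to 0.35, probe set X70369_s_at). Lyve1 differed between them by -0.70 (-1.36 to -0.05, adjusted p = 0.442) and Fcgr2b by -0.75 (-1.42 to -0.08, adjusted p = 0.412). The D3T rats lay below all TBD rats for Sparc (rc_AA946313_s_at), a separation seen at 2.25% of tested probe sets. Between TBD and OLT the differences were -0.45 for Lyve1 (-1.11 to 0.21) and -0.54 for Col3a1 (X70369_s_at, -0.97 to -0.10). Col1a1 (M27207mRNA_s_at) differed by -0.68 (-2.07 to 0.71), with 3 of 4 arrays of each compound above the array median. All had adjusted p = 0.9999 (limma). For Lyve1 the group means stood in the order vehicle, OLT, TBD and D3T from high to low, and neighbours in that order were not separated by the test.

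Several of these genes also varied together among rats of the same group. After subtraction of the group means, Lyve1 correlated over the 16 arrays with Sparc rc_AA891204_s_at (r = 0.72), Fcgr2b (0.64) and Col3a1 X70369_s_at (0.63). The deviations of both Col3a1 probe sets correlated at 0.69 and those of Sparc Y13714_at and rc_AA891204_s_at at 0.84. Other probe sets of 1 gene were unrelated or opposed: Sparc rc_AA892248_at and rc_AA946313_s_at stood at -0.48, both tested Col1a1 probe sets at -0.17, and Dcn X59859_i_at and rc_AI639233_s_at at -0.37. Kdr had no correlation above 0.5 with another tested probe set of these genes. Dcn X59859_r_at and Lyve1 stood at -0.76. These correlations describe 16 arrays, 4 per group, in which all probe sets share the RNA, labelling and scaling of their array, and carry no test.

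**Figure D4:**
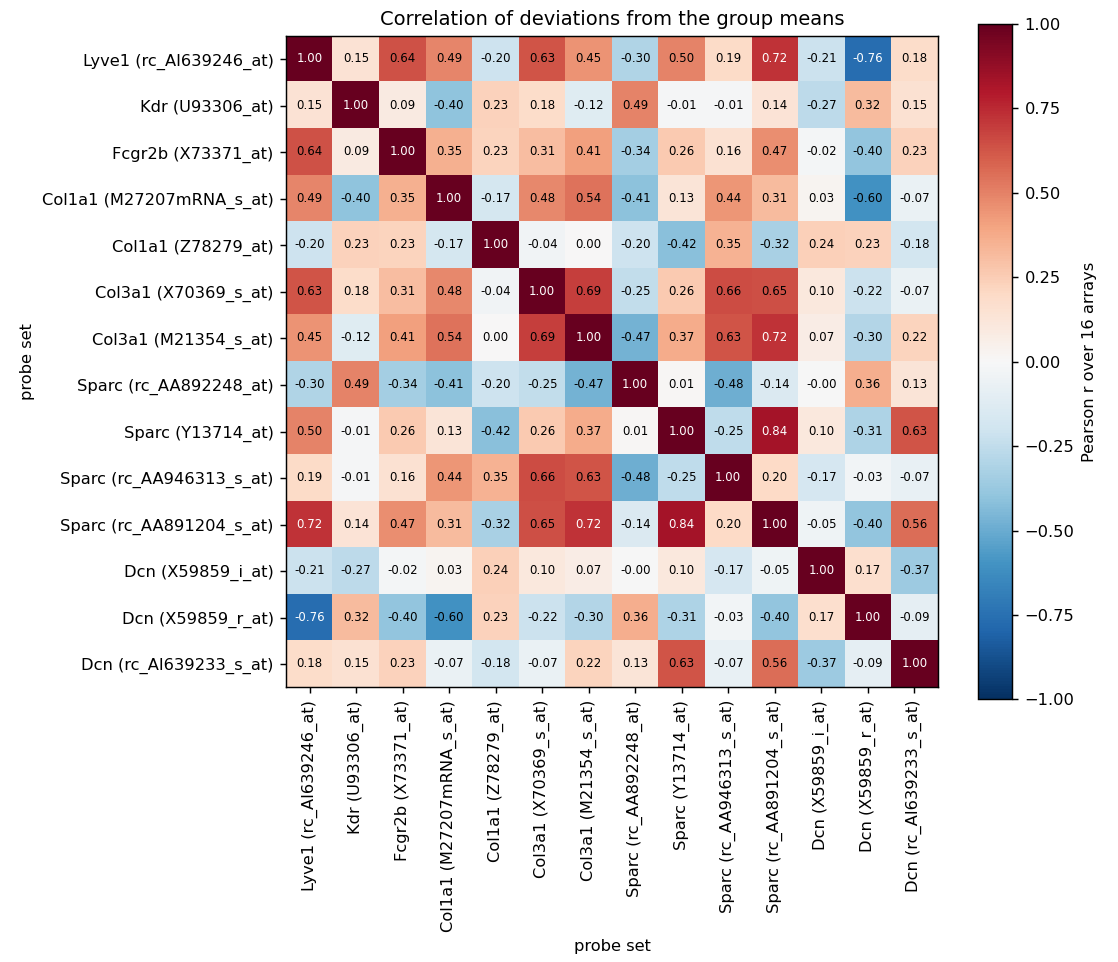
Pearson r between the tested probe sets over 16 arrays after subtraction of each group's mean, from -1 (blue) to 1 (red). Lyve1, Fcgr2b, Col3a1 and 2 Sparc probe sets form the block of positive values, while Sparc rc_AA892248_at and Dcn X59859_r_at are negative against most of them.

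These probe sets varied more between rats of a group than the array as a whole. Of the 14, 13 had a residual SD above the median of all tested probe sets, with a median of 0.40 against 0.20. Vehicle replicate 4 had the highest vehicle value in 9 of the 14, beside 25.9% of all tested probe sets, and TBD replicate 4 the highest TBD value in 8, beside 28.9%. Without vehicle replicate 4 the number of called probe sets went from 5 to 4 with D3T, from 2 to 0 with OLT and from 4 to 1 with TBD. Without TBD replicate 1 or 3 the TBD count was 1 or 2, and the OLT count was 0 without OLT replicate 1 or 3 or D3T replicate 2, 3 or 4, and 1 without vehicle replicate 3, OLT replicate 4, TBD replicate 1 or 3 or D3T replicate 1. Without OLT replicate 1 and TBD replicate 4 together, which stood apart on the second principal component, the counts were 5, 1 and 5.

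By correlation of levels over the 16 arrays, the genes most like Lyve1 were Klkb1 (r = 0.93), Ntan1 (0.915), Dpyd (0.91), Serinc3 (0.90) and Prrc2c (0.90). Those most like Fcgr2b were Dnase1l3 (0.86), Dpyd (0.85), Pon1 (0.85), Serping1 (0.84) and Cp (0.83). Col1a1 (M27207mRNA_s_at) was followed most closely by Etfdh (0.94), Igfbp3 (0.94), Akr1c14 (0.93), Canx (0.93) and Oas1a (0.93). For Col3a1 (X70369_s_at) they were Nfkbia (0.85), Lyve1 (0.84), a Sparc probe set (0.82), Cyp2j3 (0.81) and Arpc1b (0.81). Kdr was most like Rgs22 (0.80), and the probe sets taken for Sparc (rc_AA892248_at) and Dcn (X59859_i_at) were most like Ndufa6 (0.79) and Cyb5a (0.84). Differences between groups enter these values. Of deviations from the group means, Lyve1 was most like Eif4h (0.88), Fcgr2b Rab1a (0.88), Col1a1 Eif2d (0.88), Col3a1 Qdpr (0.83), Kdr Rgs22 (0.82), Sparc Gadd45a (0.77) and Dcn Rpl21 (0.81). These are the highest correlations over all tested genes and carry no test.

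Of other genes of the same cells, taken with 1 probe set per gene, few were called. Of 11 tested endothelial genes, 0 were called with any compound (limma), with 1 of 11 at an unadjusted p under 0.05 in each comparison. Over 3104 tested genes, 4.61% were called higher and 13.1% lower with D3T, 2.61% and 8.92% with OLT, and 2.80% and 10% with TBD. The medians of the endothelial genes were -0.03, -0.03 and -0.02, beside 0.03, -0.03 and -0.02 over all genes. With D3T, 1 rose and 2 fell after centring, 1 rose with the 40th percentile as a covariate, and 1 fell without vehicle replicate 4 or without OLT replicate 1 and TBD replicate 4. Many of these genes were dim, with list means between 3.80 and 4.08 per array, and 4 of the 11 lay above the array median on no array, as did 1 of 13 stellate cell genes and 3 of 11 matrix genes below. For such genes a fall could hardly be seen, and the lists as wholes were not tested.

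Of 13 tested stellate cell and fibroblast genes, 1 rose and 1 fell with D3T, 1 rose and 1 fell with OLT, and 1 fell with TBD. The intermediate filament gene Vim fell with each, from 7.31 ± 0.23 in vehicle to 5.98 ± 0.27, 6.33 ± 0.49 and 6.52 ± 0.43 (SD, n = 4; adjusted p = 0.00177, 0.0176 and 0.045, limma). The D3T call of Vim held without each array in turn while that with OLT ended when OLT replicate 2 or 3 or vehicle replicate 4 was removed (up to 0.0605). The TBD call was lost for 11 arrays left out, all but vehicle replicate 1, D3T replicate 1, OLT replicates 3 and 4 and TBD replicate 2 (up to 0.135), after quantile normalization (0.119) and without OLT replicate 1 and TBD replicate 4 together (0.0831). Hgf, the hepatocyte growth factor gene, rose with D3T by 0.49 (adjusted p = 0.049), and the proteoglycan gene Bgn rose with OLT by 0.50 (adjusted p = 0.0426). After centring the counts were 1 up and 2 down with D3T and 0 in both directions with OLT and TBD, where 3 and 1 of 13 had an unadjusted p under 0.05 (limma). With the replicate block neither Hgf nor Bgn was called (0.0838 and 0.0529). The Hgf call held only without vehicle replicate 1 or OLT replicate 1 or 2, and that of Bgn only without vehicle replicate 1 or 4, OLT replicate 2 or TBD replicate 3 or 4, when each of the 16 arrays was left out. Among 11 matrix protein genes, 1 fell with D3T, 1 rose and 1 fell with OLT, and 2 fell with TBD. The rise with OLT is that of Bgn again, which belongs to both lists. Mgp, the matrix Gla protein gene, fell in all 3, from 6.84 ± 0.51 to 4.84 ± 0.35, 5.36 ± 0.42 and 5.17 ± 0.26, and Col5a2, a fibrillar collagen gene, fell by 0.44 with TBD (adjusted p = 0.0341). The Col5a2 call was lost without vehicle replicate 2 or 4 or any TBD replicate (adjusted p up to 0.0901), after quantile normalization (-0.28, 0.0748) and after centring (0.0827), whereas those of Mgp held under each of these. Of the 11 matrix genes, 2 rose and 1 fell with D3T after quantile normalization, and 1 rose and 1 fell with OLT and with TBD. With the 40th percentile as a covariate 3 rose and 1 fell with D3T, and 1 rose and 2 fell with OLT and with TBD. After centring 1 rose and 1 fell with D3T, and 0 rose and 1 fell with OLT and with TBD.

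Of 14 genes of collagen processing and matrix turnover, 1 rose and 2 fell with D3T, and 1 fell with OLT and with TBD. P4ha1, a catalytic subunit of the collagen prolyl hydroxylase, fell with each (-0.50, -0.61 and -0.59; adjusted p = 0.0437, 0.0251 and 0.0262, limma), and Plod1, a lysyl hydroxylase, by 0.51 with D3T (0.0424). Without vehicle replicate 4 none of these 4 calls held (0.0623 to 0.121), nor without vehicle replicate 2 (0.0851 to 0.142), nor after centring (0.054 to 0.0947). With the replicate block both D3T calls were lost (0.0619 and 0.0501), and after quantile normalization those of P4ha1 with OLT and TBD and of Plod1 (0.0502, 0.0512 and 0.0528). With D3T the P4ha1 call held only without vehicle replicate 1 or 3 or TBD replicate 4. Its OLT call was also lost without OLT replicate 4 and its TBD call without TBD replicate 1, 2 or 3. The Plod1 call was also lost without any D3T replicate, OLT replicate 3 or 4 or TBD replicate 2. In contrast, P4hb, the other subunit of the prolyl hydroxylase and a general protein disulphide isomerase, rose by 0.59 with D3T, a call that held without each array in turn. Among 12 genes of TGF-beta, PDGF and VEGF signalling, 1 fell with each compound, the TGF-beta signal transducer Smad2 (-1.29, -1.18 and -0.99). Of 2 other Fc receptor genes tested, Fcgrt, the neonatal Fc receptor gene, fell with D3T (-0.72, adjusted p = 0.00404, limma). Neither was called with OLT or TBD, with 1 at an unadjusted p under 0.05 in each.

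In the same rats, 5 of 10 tested Kupffer cell and macrophage genes fell and 0 rose with each compound, with medians of -0.67, -0.43 and -0.51 over the 10. The mean log2 value of the 10 genes ran from 7.09 to 7.34 on the vehicle arrays, 6.43 to 6.58 with D3T, 6.39 to 6.84 with OLT and 6.33 to 6.84 with TBD. Aif1, a gene of activated macrophages, differed by -2.01, -2.18 and -2.21, and Ctss, a lysosomal protease gene, by -1.70, -1.34 and -1.02 with D3T, OLT and TBD. Clec4f, a receptor of Kupffer cells, the MHC class II chaperone gene Cd74 and the complement gene C1qb also fell with each, C1qb being named after its values were seen to complete the count. These 5 genes stayed above the array median on all 16 arrays. The other 5, also named after their values were seen, were not called. Cd14 differed by 0.33, 0.89 and -0.28, Lyz2 by -0.43, 0.17 and 0.06, and C1qc by -0.04, 0.28 and -0.18, while Csf1r and Itgam stayed between -0.05 and 0.11. Vehicle replicate 4 held the highest mean of this list, and without it 4, 4 and 3 genes fell. Centring left 5, 4 and 3, and renewed quantile normalization 4 with each compound. The calls of Aif1, Clec4f and C1qb held without each array in turn. With TBD that of Cd74 was lost for 12 arrays, all but D3T replicates 2 and 4, OLT replicate 3 and TBD replicate 4 (adjusted p up to 0.147), and that of Ctss without vehicle replicate 2, 3 or 4, D3T replicate 3 or TBD replicate 1, 2 or 3 (up to 0.123). The Cd74 call with D3T was lost without vehicle replicate 4 or D3T replicate 1, 2 or 3, and that with OLT without vehicle replicate 4 or OLT replicate 3. The part of macrophage RNA in the values of Fcgr2b, which macrophages also express, and of the other genes was not tested.

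**Figure D5:**
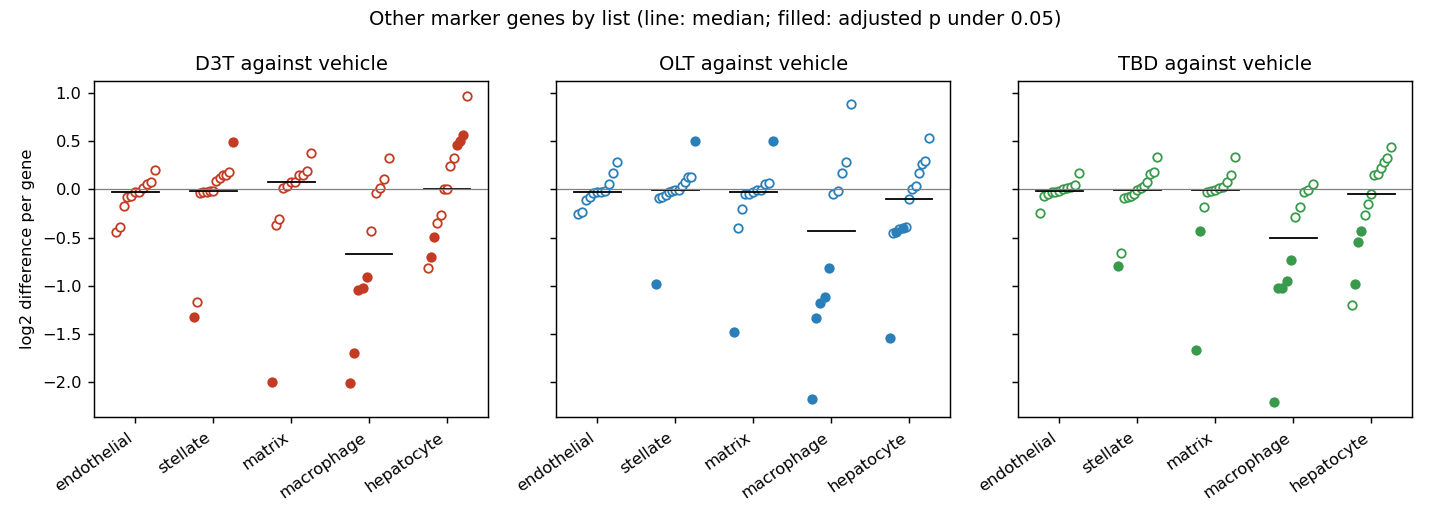
Log2 difference from vehicle of each tested gene in 5 lists, 1 panel per compound, with the median as a line and filled points for an adjusted p under 0.05. Endothelial, stellate and matrix medians lie near 0, while those of the 10 macrophage genes are -0.67, -0.43 and -0.51.

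Hepatocyte genes lay far above the array medians in all rats, with a mean over 13 tested genes of 12.61 to 13.14. Among the 13, 3 rose and 2 fell with D3T, and 3 fell with OLT and with TBD. After centring 2 rose and 2 fell with D3T, 0 fell with OLT and 2 with TBD. After quantile normalization 3, 1 and 1 rose and 3, 4 and 4 fell with D3T, OLT and TBD. Without vehicle replicate 4 the numbers were 3, 0 and 1 higher and 1, 0 and 2 lower. Without OLT replicate 1 and TBD replicate 4 together they were 4, 3 and 2 higher and 2, 4 and 5 lower. Among 7 lymphocyte genes 1 was called lower with each compound, the chemokine gene Ccl5, with OLT not after centring (adjusted p = 0.0545, limma). Ccl5 lay above the array median on 3 of 4 vehicle arrays and on 0 of 4 arrays with each compound. Its values with the compounds are near background, so the size of its fall is not a measured fold. In the list of 5 cholangiocyte genes, Krt8 alone was called, higher with D3T (0.60, adjusted p = 0.0362, limma). The call was lost after centring (0.0903), with the replicate block (0.0553) and without vehicle replicate 2 or 3 or D3T replicate 1, 2 or 3. Epcam and Cldn7 of that list lay near the array medians, and the cell type behind the rise of Krt8 was not tested. None of 4 smooth muscle and mesothelial, 3 red blood cell and 6 proliferation genes was called against vehicle (limma), although 2 red blood cell and 2 proliferation genes with D3T and 1 proliferation gene with OLT had an unadjusted p under 0.05. With D3T the replicate block called 2 proliferation genes higher and 1 red blood cell gene lower, and the 40th percentile as a covariate 1 higher and 2 lower. The medians of the arrays ran from 3.27 to 3.58. Across probe sets, which do not count as replicates, arrays of 1 group had an r of 0.983 to 0.997.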

How the data were processed

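Liver RNA of 16 rats was measured on 1 array each. The deposited values are log2 expression values; per the submitters' processing notes the authors used GCRMA. Its version was not given in the sources used here. The method corrects background from probe sequence and quantile normalizes across arrays, so dim values depend on its model. The values were fitted as deposited. Of 8740 probe sets, 7006 had 1 gene symbol in the platform annotation, 308 several and 1426 none; 6985 of the first were matched through Entrez IDs. Probe sets above their array's 40th percentile on at least 4 arrays (5323) entered 1 fit of all 4 groups (limma 3.58.1 under R 4.3.3, lmFit and eBayes, two-sided, 12 residual degrees of freedom), with Benjamini-Hochberg adjustment over all of them and 95% intervals. The 4 arrays per group limit the precision.

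Member genes, marker lists and tests were chosen with earlier results of these data known. Members were taken by symbol; each list gene stands for its brightest tested probe set, with up to 3 called genes named per list and compound, and the 5 closest genes ranked per member. Labels do not say that replicates come from separate litters or days. Same-numbered arrays of different groups did not deviate together (24 pairs, r from -0.52 to 0.32), so numbers were not used to pair rats. Tested on simulated data for D3T against vehicle over 5323 probe sets, the fit recovered 54.3% of 1.5-fold, 80.1% of 2-fold and 95.9% of 4-fold changes. Over 5 simulations, 42 calls fell on unchanged probe sets. The changed probe sets were drawn at random from all tested. The members had a larger spread (median residual SD 0.40 against 0.20), so these rates do not hold for them. Alternatives covered filters, variance priors, normalization, array weights, covariates, thresholds, the replicate block and each array left out. Promoters came from RefSeq on GRCr8.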

Additional observations from a re-analysis of the deposited data

Results flagged for a closer look

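Of 72 sets of 4 rats (18 probe sets in 4 groups), 3 held a rat whose gap to the others was large against the range of its group, where chance gives about 1 in 20. Kdr in OLT replicate 2 read 9.38, with the next rat at 6.31. Sparc (rc_AA946313_s_at) in TBD replicate 3 read 7.85, with the next rat at 7.53. Dcn (Z12298cds_s_at), a probe set too dim to be tested, read 2.78 in OLT replicate 4, with the next rat at 2.97.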

How the results depend on the processing

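The counts of called probe sets were 5 with D3T, 2 with OLT and 4 with TBD. The replicate block gave 5, 1 and 5. They were 2, 0 and 0 at an adjusted p under 0.01 and 7, 0 and 1 with array medians centred. Renewed quantile normalization gave 6, 0 and 2. Array weights, whose estimation stopped before it converged, gave 7, 3 and 7. All these counts take calls in both directions. With D3T, Dcn X59859_r_at was called higher after centring (0.22) and with array weights (0.24). With TBD, Sparc rc_AA892248_at was called higher with array weights (0.66). With OLT, Dcn X59859_i_at was called higher without OLT replicate 2 (1.38). Testing all probe sets gave 5, 0 and 3, and a fit on the 8 arrays compared 5, 0 and 1. A minimum of 1.5-fold gave 5, 1 and 3, and so did 1 mean per gene. Without OLT replicate 1 and TBD replicate 4 together the counts were 5, 1 and 5. Raising values below each array's median to that median, chosen after seeing the data, gave 5, 3 and 5. Among the 5, the D3T call of Col1a1 (M27207mRNA_s_at) compares vehicle with array medians, since all 4 D3T values were replaced. Leaving out each array in turn gave 4 to 7, 0 to 2 and 1 to 5. Between compounds the count was 0 under all of these, with 4, 2 and 2 probe sets at an unadjusted p under 0.05 for D3T against OLT, TBD against OLT and D3T against TBD (limma). The causes were not tested, beyond the fewer arrays or stricter thresholds that some settings impose by construction.

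Of the 84 comparisons of single probe sets, the 11 called kept their direction under all these settings except that array weights brought Dcn (rc_AI639233_s_at) close to 0. The 66 values that changed sign belong to uncalled differences. After renewed quantile normalization the difference turned to 0.10 for Kdr (U93306_at), D3T against vehicle, 0.0078 for Col3a1 (M21354_s_at), D3T against vehicle and 0.0115 for Fcgr2b (X73371_at), OLT against vehicle. Under the same setting the difference turned to 0.10 for Col3a1 (M21354_s_at), OLT against vehicle, 0.18 for Kdr (U93306_at), TBD against vehicle and -0.0275 for Col1a1 (Z78279_at), D3T against OLT. Under the same setting the difference turned to -0.0339 for Col1a1 (Z78279_at), D3T against TBD. With array weights the difference turned to -0.33 for Dcn (X59859_i_at), D3T against vehicle, 0.0446 for Dcn (rc_AI639233_s_at), D3T against vehicle and -0.28 for Kdr (U93306_at), OLT against vehicle. Under the same setting the difference turned to 0.0039 for Fcgr2b (X73371_at), OLT against vehicle, 0.46 for Sparc (Y13714_at), OLT against vehicle and 0.10 for Sparc (Y13714_at), TBD against vehicle. Under the same setting the difference turned to 0.0037 for Col3a1 (M21354_s_at), D3T against OLT, -0.0113 for Col1a1 (Z78279_at), TBD against OLT and -0.0038 for Dcn (X59859_r_at), TBD against OLT. Under the same setting the difference turned to -0.10 for Sparc (rc_AA891204_s_at), D3T against TBD. With the 40th percentile of each array as a covariate the difference turned to 0.0034 for Kdr (U93306_at), TBD against vehicle. With array medians centred the difference turned to -0.0281 for Col1a1 (Z78279_at), D3T against OLT, -0.0296 for Col1a1 (Z78279_at), D3T against TBD and -0.0571 for Sparc (rc_AA891204_s_at), D3T against TBD. Without OLT replicate 1 and TBD replicate 4 together the difference turned to -0.0005 for Col1a1 (Z78279_at), D3T against OLT, -0.0442 for Col1a1 (Z78279_at), TBD against OLT and -0.0330 for Dcn (X59859_r_at), TBD against OLT. Under the same setting the difference turned to -0.0230 for Dcn (rc_AI639233_s_at), TBD against OLT, 0.10 for Kdr (U93306_at), D3T against TBD and 0.11 for Sparc (Y13714_at), D3T against TBD. Leaving out each array in turn, differences that changed sign ran from -0.48 to 0.12 for Kdr (U93306_at), D3T against vehicle, -0.55 to 0.54 for Kdr (U93306_at), OLT against vehicle and -0.23 to 0.0247 for Fcgr2b (X73371_at), OLT against vehicle. Others ran from -0.15 to 0.11 for Col3a1 (M21354_s_at), OLT against vehicle, -0.0532 to 0.13 for Dcn (X59859_r_at), OLT against vehicle and -0.29 to 0.29 for Kdr (U93306_at), TBD against vehicle. Others ran from -0.0285 to 0.15 for Dcn (X59859_r_at), TBD against vehicle, -0.73 to 0.38 for Kdr (U93306_at), D3T against OLT and -0.0611 to 0.13 for Col1a1 (Z78279_at), D3T against OLT. Others ran from -0.20 to 0.10 for Sparc (rc_AA892248_at), D3T against OLT, -0.62 to 0.47 for Kdr (U93306_at), TBD against OLT and -1.23 to 0.0703 for Col1a1 (M27207mRNA_s_at), TBD against OLT. Others ran from -0.0369 to 0.0493 for Col1a1 (Z78279_at), TBD against OLT, -0.46 to 0.21 for Dcn (X59859_i_at), TBD against OLT and -0.0631 to 0.10 for Dcn (X59859_r_at), TBD against OLT. Others ran from -0.0111 to 0.0878 for Dcn (rc_AI639233_s_at), TBD against OLT, -0.47 to 0.20 for Kdr (U93306_at), D3T against TBD and -0.0764 to 0.12 for Col1a1 (Z78279_at), D3T against TBD. Others ran from -0.22 to 0.0501 for Col3a1 (X70369_s_at), D3T against TBD, -0.19 to 0.11 for Sparc (Y13714_at), D3T against TBD and -0.21 to 0.31 for Sparc (rc_AA891204_s_at), D3T against TBD. Dim probe sets limit what can be said of Col1a2, of 2 Col1a1 probe sets and of 1 Dcn probe set.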
